A study of Mus musculus with 4 samples.

Results

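The genes described here carry the symbols of enzymes that add or remove methyl and acetyl groups on histone lysines. They were chosen by symbol alone: protein-coding genes named Kdm, Kmt, Setd, Setdb, Hdac or Kat with a number, Ezh1 and Ezh2, and Ep300 and Crebbp. A symbol does not show that a gene has the activity, and other such enzymes, the sirtuins among them, lie outside the rule. The rule found 59 of the 54232 genes in the count table, of which 58 had enough counts to be tested. Bulk RNA-seq was done on RPP631, a mouse line of small cell lung cancer (SCLC), exposed for 48 h either to the vehicle DMSO or to YKL at 100 nM. The series title names YKL's target as CDK7, a kinase that sits in the transcription factor TFIIH and also switches on the cyclin-dependent kinases of the cell cycle. Each group held 2 libraries of this single line, and the labels give neither its genotype nor its strain. Nor do they state that replicates came from different cultures, so p-values measure the spread between these libraries only, which may be technical.

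Methylation of histone lysines marks genes according to the residue: on lysine 4 of histone H3 (H3K4) it accompanies active promoters and enhancers, on H3K36 the bodies of transcribed genes, and on H3K9, H3K27 and H4K20 mostly silent or compacted chromatin. Acetylation, written by the acetyltransferases and erased by the deacetylases, opens chromatin. In SCLC several of these genes are well known: CREBBP, EP300 and KMT2D are recurrently mutated in human tumours, EZH2 is abundant, and the H3K4 demethylase KDM1A has been pursued as a drug target.

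The libraries held between 29817387 and 34189709 counts assigned to genes, of which the 59 enzyme genes took 0.547% to 0.675%. Levels are given as CPM, the count relative to the library size after TMM scaling, and fold changes are YKL over DMSO on the log2 scale with their standard errors. TMM puts the typical gene near a fold change of 0, so a shift shared by most transcripts would not show. All 11 neuroendocrine markers listed for this line, Chga and Insm1 among them, were detected, with summed levels of 4407 to 5115 CPM in DMSO and 3809 to 4001 CPM in YKL. Of these, Nkx2-1, a lung lineage factor, was called lower. Markers of other cells were low throughout. Summed leukocyte markers had 1.85 to 2.76 CPM in DMSO and 4.19 to 6.17 CPM in YKL, with Cd3e at 0 in every library. Of these, Ptprc was called higher, from 0 and 0.0635 CPM in DMSO to 0.816 and 0.714 CPM in YKL. Endothelial markers had 2.33 to 2.86 CPM in DMSO and 2.92 to 4.08 CPM in YKL. Fibroblast markers had 12.7 to 25.2 CPM in DMSO and 18.1 to 44.8 CPM in YKL. This was mostly Pdgfra, with 11.5 and 23.1 CPM in DMSO against 43.1 and 17.6 CPM in YKL, while Dcn had a log2 fold change of -1.18 and Col1a1 0.08. Markers of other lung epithelium had 7.202 to 10.8 CPM in DMSO and 15.5 to 16.3 CPM in YKL. Foxj1 held most of that, with 8.58 and 4.89 CPM in DMSO against 14.0 and 15.4 CPM in YKL, while Sftpc (-1.09) and Ager (-0.74) were lower. EdgeR called none of the endothelial, fibroblast and lung epithelium markers, and DESeq2 called 1 of the lung list. The part of such cells in the results was not tested. In bulk RNA, fewer cells of a kind and less RNA per cell cannot be told apart.

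More enzymes were lower than higher in YKL. Kdm8, Kdm3b, Kdm4a, Kmt5b and Kat6b fell and Ezh2 rose, each called by edgeR's quasi-likelihood test at a Benjamini-Hochberg adjusted p under 0.05. These 6 are 10.3% of the 58 tested, where 3.54% of all 16749 genes tested were called. By direction, 5 of the 58 were called lower, against 1.44% of all genes, and 1 was called higher, against 2.1%. The fold change was below 0 for 38 enzymes (65.5%), against 50% of all genes, and the median was -0.22 against -1.4e-04. Both YKL libraries lay outside the range of both DMSO libraries for 39 of the 58 (67.2%), against 52.3% of all genes: below it for 29, against 25.3%, and above it for 10, against 27%. An unadjusted p under 0.05 was reached by 21 (36.2%), against 21.2% of all genes: 15 were lower, against 9.9%, and 6 higher, against 11.3%. Mitochondrial transcripts took 1.01% and 1.14% of the counts in DMSO replicates 1 and 2 against 1.25% and 1.78% in YKL replicates 1 and 2, and YKL replicate 2, the highest, had the lowest share of counts in the enzymes (0.547%). The part of RNA quality in the enzyme values was not tested. By activity, 3 of 17 tested demethylases, 1 of 20 methyltransferases and other SET-domain genes and 1 of 10 acetyltransferases fell, and 1 methyltransferase rose. None of 11 deacetylases was called by edgeR, although 3 had an unadjusted p under 0.05 and DESeq2 called 2, Hdac8 and Hdac9.

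**Figure D1:**
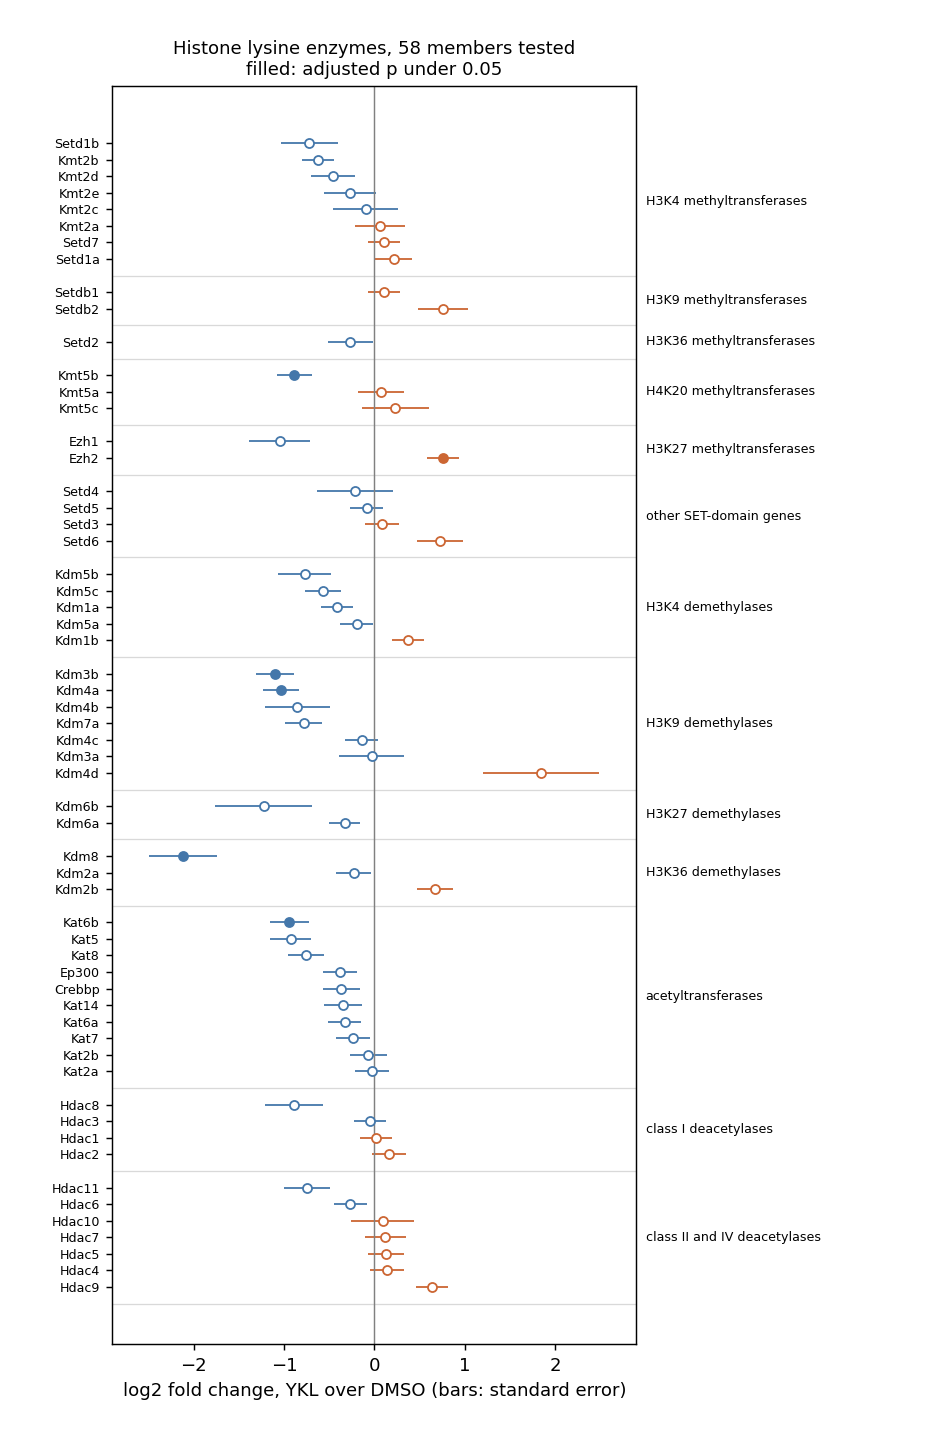
Log2 fold change of YKL over DMSO (x axis) for each of the 58 tested enzymes, grouped by the residue or class they act on, with bars of 1 standard error. Filled points are the 6 called genes: Kdm8 at -2.12, Kdm3b, Kdm4a, Kmt5b and Kat6b between -1.10 and -0.89, and Ezh2 at 0.75, while all 10 acetyltransferases lie left of 0.

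Every one of the 6 calls rested on both YKL libraries. Without YKL replicate 1 or YKL replicate 2, edgeR called 0 enzymes, with 15 and 18 at an unadjusted p under 0.05, and only 106 and 71 genes in all (0.606% and 0.402%). The spread then comes from the DMSO pair alone, and the lone YKL library is assumed to vary like it. DESeq2, as run here with all libraries, called 15 enzymes, 12 lower and 3 higher, where it called 11.6% of the genes to which it gave an adjusted p.

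The demethylases held the largest decrease. Kdm8 (ENSMUSG00000030752, chromosome 7, 125444676 to 125462269, mm10), also known as Jmjd5, encodes a JmjC oxygenase that was first described as an H3K36 demethylase and later as an arginine hydroxylase. Its raw counts were 417 and 298 in DMSO against 72 and 87 in YKL, or 12.5 and 9.45 CPM in DMSO against 2.35 and 2.70 CPM in YKL. Both YKL libraries were far below both DMSO libraries. The decrease was 4.33-fold, with 10.96 ± 2.13 CPM in DMSO against 2.53 ± 0.248 CPM (means ± SD over n = 2 libraries each, with a log2 fold change of -2.12 ± 0.38, adjusted p = 0.0238). With any 1 library left out the log2 fold change ran from -2.34 to -1.90.

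Stretches of 150 bases around the RefSeq start sites of Ezh2, Kdm8 and Kdm4a (build GRCm38.p6, 120 bases before the start and 30 from it on) are shown because Ezh2 is the enzyme that rose and Kdm8 and Kdm4a are the called demethylases with a promoter window at hand. Read 5′ to 3′ along the gene, capitals mark CCAAT in either direction (on the other strand it reads ATTGG), the motif TTTGAA and the motif TTTGGCGC.
Ezh2, chr6:47595001-47595150, minus strand: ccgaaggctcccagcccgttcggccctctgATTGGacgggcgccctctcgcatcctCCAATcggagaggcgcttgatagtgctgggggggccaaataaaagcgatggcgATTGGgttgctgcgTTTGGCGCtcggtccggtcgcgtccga
Kdm8, chr7:125444500-125444649, plus strand: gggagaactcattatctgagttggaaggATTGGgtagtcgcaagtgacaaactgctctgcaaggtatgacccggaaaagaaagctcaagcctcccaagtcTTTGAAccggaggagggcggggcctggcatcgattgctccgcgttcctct
Kdm4a, chr4:118180014-118180163, minus strand: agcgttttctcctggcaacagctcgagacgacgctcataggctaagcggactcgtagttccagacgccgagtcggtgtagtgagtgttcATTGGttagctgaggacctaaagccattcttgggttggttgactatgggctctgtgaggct

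RefSeq promoter windows of 300 bases were at hand for 47 of the 59 enzymes and searched on both strands for 5 motifs. TTTGGCGC, an E2F-type site, was found in the window of Ezh2, from 3 bases after the start, and in no other enzyme, and 0.514% of all 32851 windows held it. The related TTTCCCGC was found in the window of Kmt5c and in 1.07% of all windows. CCAAT was common, with 23 of the 47 enzymes (48.9%) and 37.4% of all windows, and TTTGAA, the core of the CHR element of late cell cycle genes, was in 8 enzymes (17%), Kdm8 among them, and 17.9% of windows. ACGTG, which lies at the core of sites for hypoxia-inducible factors, was in 12 of the enzymes (25.5%) and 19.6% of windows. The enzyme shares count a gene with a match in any of its windows, while the share of all windows is per window, so they are not alike. By window, CCAAT was in 28 of the 65 enzyme windows, TTTGAA in 8 and ACGTG in 12. The matches describe the letters in these windows and show no binding.

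The H3K9 demethylases came next. Kdm4a (ENSMUSG00000033326, chromosome 4, 118136957 to 118180043), which removes methyl groups from H3K9 and H3K36, had 205 and 191 CPM in DMSO replicates 1 and 2 against 84.3 and 109 CPM in YKL replicates 1 and 2. It was 2.05-fold lower, at 198 ± 9.62 CPM in DMSO against 96.7 ± 17.5 CPM (log2 fold change -1.03 ± 0.20, adjusted p = 0.0275). In DMSO it was among the most abundant enzymes of the set. Kdm3b (ENSMUSG00000038773, chromosome 18, 34777047 to 34838660), which acts on H3K9 with lower methylation, had 112 and 82.3 CPM in DMSO against 46.9 and 43.8 CPM in YKL. The DMSO libraries differed from each other but both lay above the YKL pair, and the decrease was 2.14-fold (-1.10 ± 0.21, adjusted p = 0.0273). Besides the loss of either YKL library, the calls of Kdm8 and Kdm3b ended with total count scaling, and those of Kdm4a and Kdm3b without the robust prior. When a library was left out, the log2 fold change ran from -1.23 to -0.85 for Kdm4a and from -1.34 to -0.86 for Kdm3b. The share of Kdm4a in the summed level per kb of Kdm4a, Kdm4b and Kdm4c was 49.5% and 37.2% in DMSO against 30.2% and 36.7% in YKL, and that of Kdm3b in Kdm3a and Kdm3b was 35.9% and 16.6% against 11.99% and 14.7%. For both, DMSO replicate 2 lay near the YKL libraries.

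Of the other H3K9 demethylases edgeR called none as reported, with Kdm7a and Kdm4d at an unadjusted p under 0.05, and DESeq2 called Kdm7a. Kdm7a, which acts on H3K9 and H3K27, had 97.5 and 132 CPM in DMSO replicates 1 and 2 against 65.2 and 68.3 CPM in YKL replicates 1 and 2 (-0.78 ± 0.20, adjusted p = 0.0664). Both YKL values were below both DMSO values. DESeq2 gave Kdm7a an adjusted p of 0.00975, and edgeR also called it with the replicate block, with no filter and when DMSO replicate 1 was left out. Its exons share 287 bases with the antisense gene 4930599N23Rik, which had 39 to 83 counts. Kdm4c had 122 and 131 CPM in DMSO against 121 and 108 CPM in YKL (-0.14 ± 0.18), a small difference beside its error. Kdm4d, which is best known from the testis, was near the floor, with raw counts of 9 and 5 in DMSO against 24 and 25 in YKL (1.84 ± 0.64, adjusted p = 0.139). The pseudogene Kdm4dl had raw counts of 2 and 2 in DMSO against 12 and 10 in YKL, and reads of such related copies may have been split between them.

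Demethylases of H3K4 and H3K27 held no edgeR call. An unadjusted p under 0.05 was reached by 3 of 5 tested for H3K4 and 0 of 2 for H3K27, and DESeq2 as run here called 0 and 1, the latter Kdm6b. Kdm1a, or LSD1, a flavin-dependent enzyme and the most abundant member per length, had 358 and 339.8 CPM in DMSO replicates 1 and 2 against 251 and 274 CPM in YKL replicates 1 and 2. The groups did not overlap, but the difference was small and not called (-0.41 ± 0.18, adjusted p = 0.216). Its relative Kdm1b had 67.7 and 72.1 CPM in DMSO against 86.5 and 94.5 CPM in YKL (0.37 ± 0.18, adjusted p = 0.269), the opposite direction, and shares 505 exonic bases with Dek on the other strand. Among the JmjC enzymes that erase H3K4 methylation, the X-linked Kdm5c had 226 and 256 CPM in DMSO against 138 and 187 CPM in YKL (-0.57 ± 0.20, adjusted p = 0.148). Kdm5b had 54.8 and 91.8 CPM in DMSO against 34.8 and 50.9 CPM in YKL (-0.77 ± 0.29, adjusted p = 0.184), and DMSO replicate 2 was the highest library. Without that library the log2 fold change of Kdm5b was -0.39, and edgeR called Kdm5b with the replicate block, with no filter and when DMSO replicate 1 was left out. Kdm5a had a value of -0.20 ± 0.18. The Y-linked Kdm5d had 0 counts in every library, as did the Y-linked Uty, a demethylase named outside the rule. A count of 0 allows up to 3 counts per library. This is the single enzyme that was not tested. The H3K27 demethylase Kdm6a had 163 and 159 CPM in DMSO against 123 and 133 CPM in YKL (-0.33 ± 0.17, adjusted p = 0.319).

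Of the H3K36 demethylases other than Kdm8, edgeR called neither, and DESeq2 called Kdm2b. Kdm2b, which brings a variant Polycomb complex to unmethylated CpG islands, had 80.3 and 65.5 CPM in DMSO replicates 1 and 2 against 128 and 104 CPM in YKL replicates 1 and 2 (0.67 ± 0.20, adjusted p = 0.0954). Both YKL values were above both DMSO values. Kdm2b shares 199 exonic bases with the antisense gene A930024E05Rik, which was called higher, with raw counts of 75 and 140 in DMSO against 624 and 330 in YKL (log2 fold change 2.19, adjusted p = 0.0411), and the strand setting of the counting is not given. Kdm2a had -0.23 ± 0.19.

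Among the methyltransferases 1 rose. Ezh2 (ENSMUSG00000029687, chromosome 6, 47530139 to 47595341), the catalytic subunit of Polycomb repressive complex 2 (PRC2) in dividing cells, had 193 and 176 CPM in DMSO replicates 1 and 2 against 323 and 299.8 CPM in YKL replicates 1 and 2. Replicates lay close together, and the groups were well apart. It was 1.69-fold higher, at 185 ± 12.6 CPM in DMSO against 311 ± 16.3 CPM (log2 fold change 0.75 ± 0.18, adjusted p = 0.0497), the only call in this direction and the one closest to the threshold. The call ended without either YKL library, without DMSO replicate 2, with RLE, upper quartile or total count scaling and without the robust prior, at log2 fold changes of 0.65 to 0.83 when 1 library was left out. Ezh1, the form prominent in resting cells, had 24.7 and 51.3 CPM in DMSO against 17.0 and 19.6 CPM in YKL (-1.05 ± 0.34, adjusted p = 0.131), not called by edgeR as reported. DESeq2 called it with an adjusted p of 0.03, and so did edgeR with the replicate block, with no filter and when DMSO replicate 1 was left out. DMSO replicate 2 was again the high library, and without it the value was -0.46. Per kb of exon, Ezh2 made up 89.7% and 79.2% of the summed level of both genes in DMSO and 95.5% and 94.4% in YKL.

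Of the H4K20 methyltransferases, Kmt5b (ENSMUSG00000045098, chromosome 19, 3767421 to 3818303), which adds the second methyl group, had 84.1 and 69.8 CPM in DMSO replicates 1 and 2 against 41.9 and 41.3 CPM in YKL replicates 1 and 2. The YKL replicates were nearly equal and the decrease was 1.85-fold, with 76.9 ± 10.1 CPM in DMSO against 41.6 ± 0.418 CPM (log2 fold change -0.89 ± 0.19, adjusted p = 0.0391). The call ended with upper quartile or total count scaling and without the robust prior, besides the loss of either YKL library, and the log2 fold change ran from -1.05 to -0.74 with 1 library left out. Its exons share 927 bases with Gm16066 on the other strand, which had at most 1 count. The related Kmt5c had 32.9 and 73.8 CPM in DMSO against 64.7 and 60.7 CPM in YKL (0.23 ± 0.37), with DMSO replicate 1 apart from the other libraries. Kmt5a, which adds the first methyl group and peaks in mitosis, had 219 and 144 CPM in DMSO against 224 and 157 CPM in YKL (0.07 ± 0.25), and its groups overlapped. The share of Kmt5b in the summed level per kb of Kmt5b and Kmt5c was 42.0% and 21.1% in DMSO against 15.5% and 16.2% in YKL.

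The 8 genes classed by symbol as H3K4 methyltransferases, which include the MLL genes, had fold changes from -0.72 to 0.22. EdgeR called none, with 1 at an unadjusted p under 0.05, the same gene that DESeq2 called. This was Kmt2b, with 114 and 131 CPM in DMSO replicates 1 and 2 against 80.0 and 78.7 CPM in YKL replicates 1 and 2 (-0.62 ± 0.18, adjusted p = 0.091). The other MLL-family genes differed more between the YKL libraries than between the groups. Kmt2a had 261 and 218 CPM in DMSO against 321 and 179 CPM in YKL, and Kmt2c had 185 and 139 CPM in DMSO against 205 and 97.9 CPM in YKL. YKL replicate 1 was 1.79 times YKL replicate 2 for Kmt2a, 2.10 times for Kmt2c, 1.64 times for Kmt2d and 1.91 times for Kmt2e. These are long transcripts, with 16670, 20291, 19931 and 10444 exonic bases, and the part of transcript length was not tested for this pair. In all, 6 of the 58 enzymes were at least 1.5 times apart in the YKL pair (10.3%, against 13.0% of all genes averaging 1 CPM or more), each higher in YKL replicate 1. The other two, Setd4 and Hdac10, have 4702 and 3379 exonic bases. For Kmt2c the log2 fold change was -0.72 without YKL replicate 1 and 0.34 without YKL replicate 2. Setd1b had 86.9 and 43.7 CPM in DMSO against 42.3 and 36.9 CPM in YKL (-0.72 ± 0.32), and without DMSO replicate 1, its highest library, the value was -0.14. Setd1a (0.22 ± 0.20) is uncertain, because Gm49388 on the same strand holds 51.9% of its exonic bases. Setd7, the most abundant of these genes per kb, had 168 and 185 CPM in DMSO against 183 and 197 CPM in YKL (0.11 ± 0.18).

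Neither edgeR as reported nor DESeq2 as run here called any of the remaining SET-domain genes. Of these, Setdb2 and Setd6 had an unadjusted p under 0.05, and the authors' deposited table called both. Setdb2, an H3K9 methyltransferase, had 18.2 and 12.6 CPM in DMSO against 29.5 and 22.7 CPM in YKL (0.76 ± 0.28, adjusted p = 0.152), and edgeR called it when DMSO replicate 1 was left out. Setd6, which also methylates a subunit of NF-kB, had 13.6 and 13.3 CPM in DMSO against 24.5 and 19.99 CPM in YKL (0.73 ± 0.25, adjusted p = 0.141). In both genes the YKL libraries were above the DMSO libraries. Setdb1, the main H3K9 enzyme of retroelement silencing, had 0.11 ± 0.18, and Setd2, which adds the third methyl group to H3K36, had -0.27 ± 0.25. Setd3, Setd4 and Setd5 had 0.08 ± 0.19, -0.22 ± 0.42 and -0.09 ± 0.18.

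**Figure D2:**
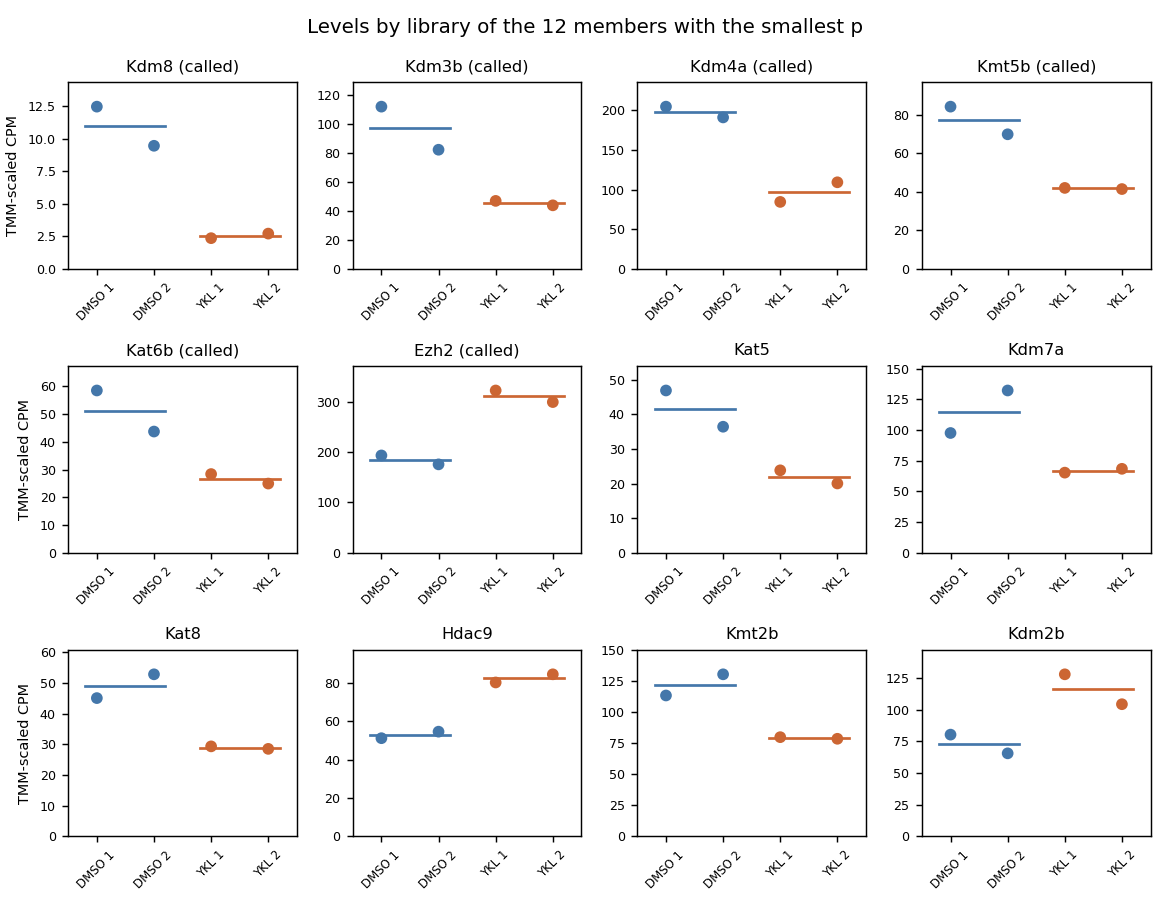
TMM-scaled CPM (y axes, from 0) in each library for the 12 enzymes with the smallest p, with lines at the mean of each pair. In all 12 the YKL and DMSO libraries do not overlap, which the choice by p from these same libraries favours. The groups do not overlap in 52.3% of all genes tested. The first 6 panels are the called genes.

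All 10 acetyltransferases had fold changes below 0, from -0.94 to -0.03, with a median of -0.36 against -1.4e-04 over all genes, and 1 was called. The shared sign did not hold with a library left out. Kat2a was at 0.12 without YKL replicate 1, and Kat2b at 0.066 without YKL replicate 2. Kat6b (ENSMUSG00000021767, chromosome 14, 21481434 to 21672478), which acetylates histone H3 within the BRPF complexes, had 58.6 and 43.7 CPM in DMSO replicates 1 and 2 against 28.4 and 24.9 CPM in YKL replicates 1 and 2. It was 1.92-fold lower, at 51.1 ± 10.5 CPM in DMSO against 26.6 ± 2.43 CPM (log2 fold change -0.94 ± 0.22, adjusted p = 0.0496). Without DMSO replicate 1, its highest library, the value was -0.71 and the call was lost, as it was at -1.03 without YKL replicate 1 and -0.85 without YKL replicate 2. It also ended with upper quartile or total count scaling, with the stricter filter, among protein-coding genes alone and without the robust prior. Its paralog Kat6a, the more abundant gene, had 302 and 256 CPM in DMSO against 237 and 207 CPM in YKL (-0.33 ± 0.18). The share of Kat6b in their summed level per kb was 9.57% and 8.52% in DMSO against 6.12% and 6.16% in YKL.

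Kat5 and Kat8 came close to the threshold. Kat5, or Tip60, the enzyme of the NuA4 complex, had 47.0 and 36.5 CPM in DMSO replicates 1 and 2 against 23.8 and 20.02 CPM in YKL replicates 1 and 2 (-0.93 ± 0.23, adjusted p = 0.0557). It shares 423 exonic bases (21.1%) with Rnaseh2c on the other strand, which had 29.4 and 32.1 CPM in DMSO against 30.2 and 36.1 CPM in YKL. Kat8, or MOF, which acetylates H4K16, had 45.1 and 52.8 CPM in DMSO against 29.3 and 28.5 CPM in YKL (-0.76 ± 0.20, adjusted p = 0.0694). It shares 122 bases with Prss8 on the other strand, which had 22.8 and 22.9 CPM in DMSO against 9.50 and 17.9 CPM in YKL. DESeq2 called both Kat5 and Kat8, and so did edgeR with the replicate block or when no filter was applied. Ep300 had 205 and 165 CPM in DMSO against 148 and 135 CPM in YKL (-0.38 ± 0.19, adjusted p = 0.282), and Crebbp had 62.5 and 53.4 CPM in DMSO against 50.4 and 39.5 CPM in YKL (-0.37 ± 0.21, adjusted p = 0.344). In both coactivator genes the YKL libraries were below the DMSO libraries, by less than the test could call. Kat7, the most abundant acetyltransferase per kb, had -0.24 ± 0.19 and Kat14 -0.35 ± 0.21. Kat2a and Kat2b, the catalytic subunits of SAGA-type complexes, had -0.03 ± 0.19 and -0.07 ± 0.20, with overlapping groups.

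No deacetylase was called by edgeR. Hdac1, a class I enzyme, had 113 and 112 CPM in DMSO replicates 1 and 2 against 114 and 114 CPM in YKL replicates 1 and 2 (0.02 ± 0.17), and its 4 values were nearly equal. Hdac2, its partner in the corepressor complexes, had 271 and 272 CPM in DMSO against 264 and 344 CPM in YKL (0.16 ± 0.19), and YKL replicate 2 was the highest library. Hdac3, the deacetylase of the NCoR complexes, had -0.05 ± 0.18. The absence of a call does not show that levels were equal. Hdac8, a class I enzyme that also acts on cohesin, had 11.96 and 14.1 CPM in DMSO against 6.20 and 7.88 CPM in YKL (-0.89 ± 0.32, adjusted p = 0.149). In class II and IV, Hdac9 had 51.1 and 54.5 CPM in DMSO against 80.1 and 84.4 CPM in YKL (0.64 ± 0.18, adjusted p = 0.084) and Hdac11, the class IV enzyme, had 26.4 and 27.5 CPM in DMSO against 18.9 and 13.3 CPM in YKL (-0.75 ± 0.26, adjusted p = 0.134). The groups did not overlap in Hdac8, Hdac9 or Hdac11, nor in Hdac1, Hdac4 or Hdac6. These are 6 of the 11 deacetylases, against 52.3% of all genes. The mostly cytoplasmic tubulin deacetylase Hdac6, the most abundant of these classes per kb, had -0.26 ± 0.18. Hdac4, Hdac5, Hdac7 and Hdac10 had values from 0.09 to 0.14.

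**Figure D3:**
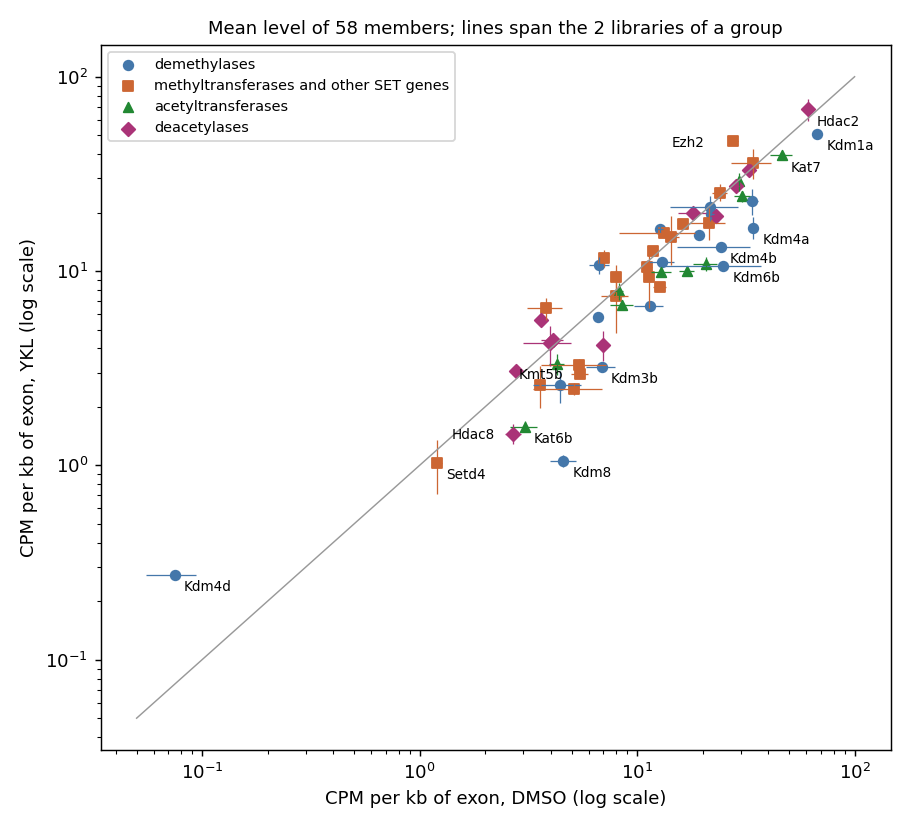
Mean CPM per kb of exon in DMSO (x axis) and YKL (y axis), both on log scales, for the 58 tested enzymes by activity. Lines span the 2 libraries of a group. Kdm1a and Hdac2 lie at the top, Kdm4d at the bottom, and Kdm8 lies farthest below the diagonal.

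Levels of the enzymes per length spanned a wide range. Mean levels in DMSO ran from 0.0747 CPM per kb of exon for Kdm4d to 67.4 for Kdm1a, with a median of 12.3 against 5.10 over all genes tested. Behind Kdm1a came Hdac2 at 60.7, Kat7 at 46.4, Kdm4a at 34.2 and Kmt5a at 34.2 CPM per kb. Kdm1a was above Hdac2 in both DMSO libraries. Kdm4a and Kmt5a did not differ beyond their spread, at 35.4 and 33.0 CPM per kb for Kdm4a and 41.3 and 27.1 for Kmt5a. In YKL the order at the top was reversed, with Hdac2 at 67.96 and Kdm1a at 50.7 CPM per kb, and Kdm4a was at 16.7, below Ezh2 at 46.6.

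The DMSO libraries differed from each other in a part of the enzymes. In 10 of the 58 they were at least 1.5 times apart (17.2%, against 22% of all genes averaging 1 CPM or more), 7 of them higher in DMSO replicate 2. The H3K27 demethylase Kdm6b, an enzyme induced by inflammatory signals, had 89.3 and 257 CPM in DMSO replicates 1 and 2 against 75.3 and 72.6 CPM in YKL replicates 1 and 2. DMSO replicate 2 stood alone, and the fold change of -1.23 ± 0.53 (adjusted p = 0.296) became -0.31 without it. The H3K9 demethylases Kdm4b and Kdm3a, both known targets of hypoxia-inducible factors, showed the same high library. Kdm4b had 74.4 and 162 CPM in DMSO against 62.9 and 67.9 CPM in YKL (-0.86 ± 0.36, and -0.22 without DMSO replicate 2). Kdm3a had 117 and 241 CPM in DMSO against 201 and 149 CPM in YKL (-0.03 ± 0.36), and its sign turned, to -0.46 without DMSO replicate 1 and 0.55 without DMSO replicate 2. The others were Kmt5c, Ezh1, Kdm5b and Hdac10. All 10 hypoxia genes of a short list, Bnip3, Pdk1 and Slc2a1 among them, were lowest in DMSO replicate 1 and highest in DMSO replicate 2. Of the 7 enzymes, only Kdm3a and Kmt5c had that order. Kdm6b, Kdm4b, Ezh1 and Kdm5b were lowest in a YKL library, and Hdac10 was highest in YKL replicate 1. Between the groups edgeR called 0 of the hypoxia genes, with 0 at an unadjusted p under 0.05 and 0 by DESeq2. Their summed level was 470.0 and 2704 CPM in DMSO replicates 1 and 2 and 1398 and 1327 CPM in YKL replicates 1 and 2. That list was chosen with earlier results on these libraries known, and its part in the values of the enzymes was not tested. For the 6 called genes DMSO replicate 2 had 0.734 to 0.933 times the level of DMSO replicate 1, lower in each. These genes were chosen by a call that uses the same values, so this is not a separate result. The cause of the shared direction was not tested.

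**Figure D4:**
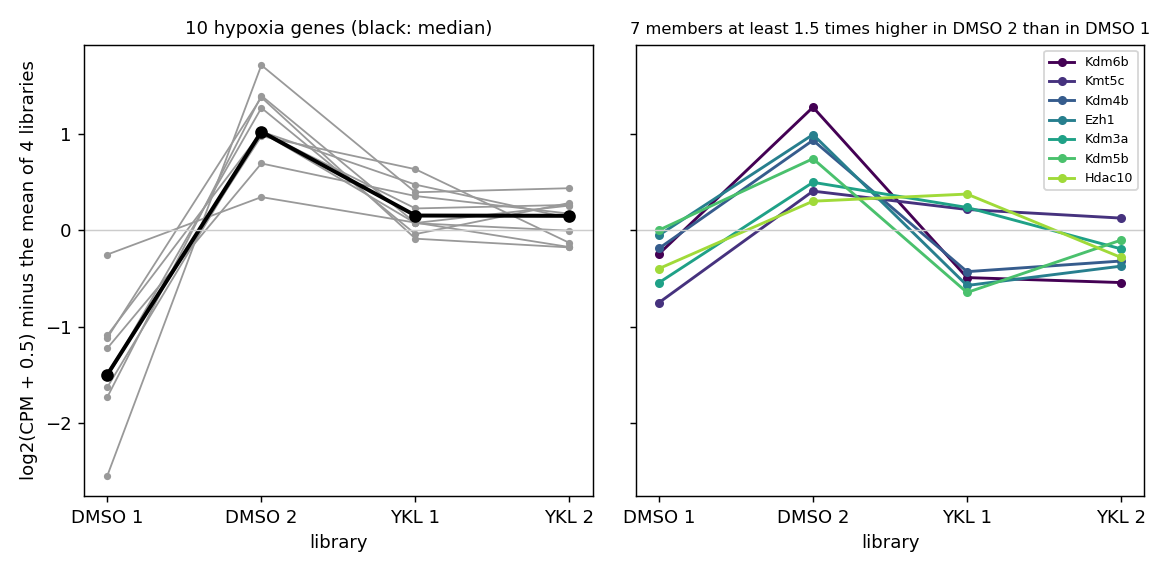
Log2(CPM + 0.5) in each library minus the mean over the 4 libraries. Left, 10 hypoxia genes with their median in black, which runs from -1.49 in DMSO replicate 1 to 1.02 in DMSO replicate 2. Right, the 7 enzymes at least 1.5 times higher in DMSO replicate 2 than in DMSO replicate 1.

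Genes that work with the enzymes were called about as often as genes in general. Of 154 tested genes in 8 lists of complex partners and related enzymes, 5 were called (3.25%, against 3.54% of all genes), 4 lower and 1 higher. The fold change was below 0 for 94 of the 154, against 50% of all genes and 65.5% of the enzymes. The median was -0.11, against -1.4e-04 over all genes and -0.22 for the enzymes. Of 10 PRC2 partners 1 fell, Jarid2, a PRC2 cofactor, with 84.1 and 109 CPM in DMSO against 53.5 and 49.0 CPM in YKL (log2 fold change -0.91, adjusted p = 0.0398). The core subunits Eed, Suz12 and the Rbbp genes were not called. Of 50 partners of acetyltransferases 2 fell, Mcrs1 with 61.8 and 41.5 CPM in DMSO against 20.2 and 22.1 CPM in YKL (-1.29, adjusted p = 0.0265) and Mbip with 105 and 92.3 CPM in DMSO against 55.7 and 50.2 CPM in YKL (-0.90, adjusted p = 0.035). Mcrs1 belongs to the NSL complex of Kat8 and Mbip to the ATAC complex of Kat2a, and 34 of the 50 values were below 0. Of 13 acetyl-lysine readers 1 fell, Brd8, a NuA4 subunit, with 187 and 162 CPM in DMSO against 90.0 and 71.6 CPM in YKL (-1.11, adjusted p = 0.0229). Of 7 further demethylases tested 1 rose, Hr, an H3K9 demethylase known from hair growth, with 32.6 and 39.2 CPM in DMSO against 69.1 and 69.7 CPM in YKL (0.95, adjusted p = 0.0332). By edgeR none was called of 13 COMPASS and Menin partners, 18 other lysine methyltransferases, 7 sirtuins and 37 genes of the deacetylase corepressor complexes. Of these, 3, 3, 2 and 7 had an unadjusted p under 0.05, as did 21.2% of all genes. DESeq2 called 0, 2, 1 and 0 of them, against 11.6% of the genes to which it gave an adjusted p.

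In 12 cell cycle genes followed beside the enzymes, Birc5 and Ccnb1, which act in mitosis, fell (log2 fold changes -1.20 and -0.96, adjusted p = 0.02 and 0.0497). Ccne1, a cyclin of S-phase entry, rose (1.05, adjusted p = 0.0217). The list median was -0.24. The other 9 were not called by edgeR and had log2 fold changes from -0.77 to 0.48. Of the 12, edgeR thus called 2 lower and 1 higher, where it called 3.54% of all genes. An unadjusted p under 0.05 was reached by 6, against 21.2% of all genes. DESeq2 called 5, against 11.6% of the genes to which it gave an adjusted p. The part of cell cycle position in the enzyme values was not tested.

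The enzyme transcripts were long, with a median of 6824 exonic bases against 3873 for all genes tested. The 29 enzymes of at least that length had a median log2 fold change of -0.33 and the 29 shorter ones -0.05, against -0.05 and 0.02 for all genes split at the same length. Across the 58 enzymes, which share the same 4 libraries, Spearman's rho between exonic length and fold change was -0.14, and it was -0.07 across all genes. With an offset that removes the length trend of each library, edgeR called 7 enzymes, the same 6 and Kat5, and 4.41% of all genes.

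The count of enzymes called varied with the processing, as did the share of all genes called. RLE scaling gave 6 enzymes against 4.19% of all genes, upper quartile scaling 3 against 1.98%, and total count scaling 1 against 1.01%. Without the filter 16 enzymes were called against 5.79% of all genes, and with a filter of 5 CPM in 2 libraries 5 against 4.82%. The replicate block gave 12 against 8.28%, the ordinary prior in place of the robust one 1 against 1.41%, and protein-coding genes alone 5 against 3.62%. Without DMSO replicate 1 edgeR called 14 enzymes against 7.61% of all genes, and without DMSO replicate 2 it called 8 against 14%. At an adjusted p under 0.01 it called 0, with 21 at an unadjusted p under 0.05, against 0.179%.

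The authors' deposited table gave all 58 tested enzymes. At an adjusted p under 0.05, the authors' deposited table called 24 of them (41.4%), against 27.8% of the genes in it, 18 lower and 6 higher. All 6 enzymes called by edgeR were among these 24. So were Kdm1a, Kdm5b, Kdm5c, Kdm4b, Kdm4d, Setd1b, Setdb2, Setd6 and Hdac11, which DESeq2 as run here did not call. Elsewhere in the text, calls by DESeq2 are those of the run made here on the raw counts.

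**Figure D5:**
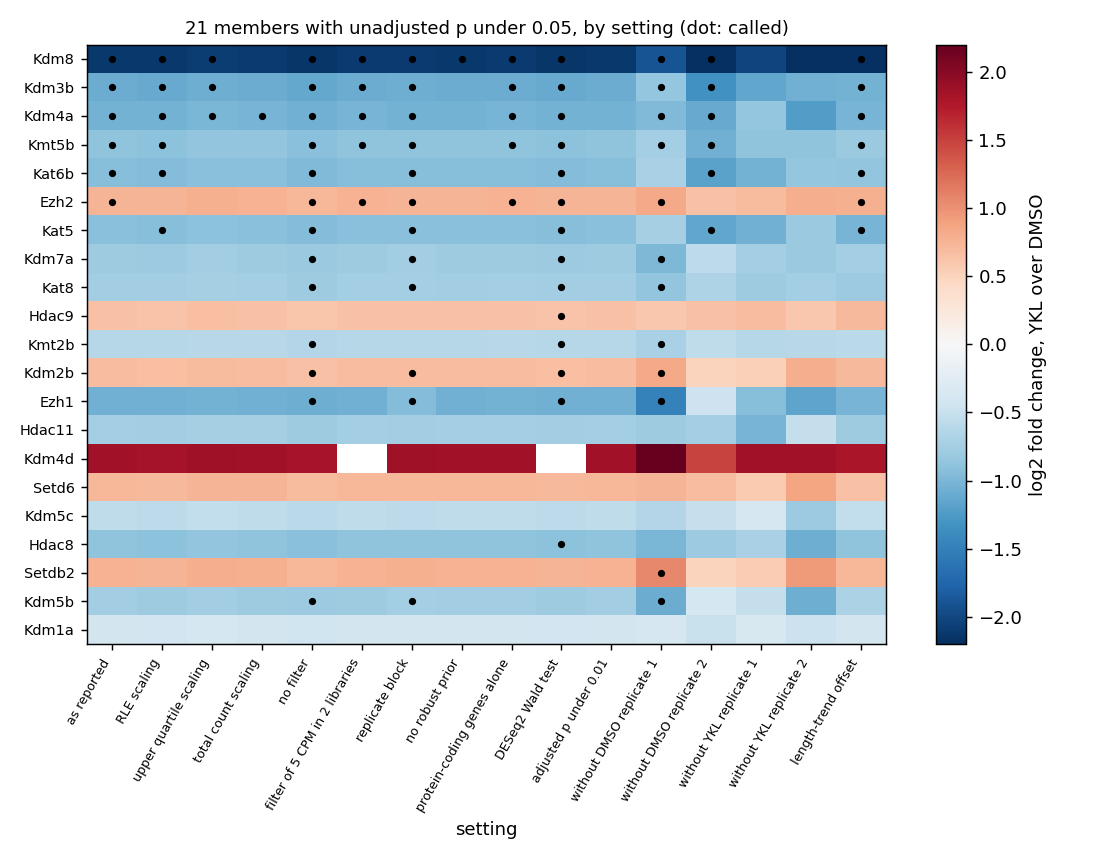
Log2 fold change (colour) of the 21 enzymes with an unadjusted p under 0.05 (rows) under each way of processing (columns), with a dot where the gene was called. Directions hold across columns, Kdm8 and Kdm4a carry the most dots, and the columns without a YKL library carry none. White cells are those in which Kdm4d had no value.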

How the data were processed

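The submitters' processing notes name mm10, STAR 2.5.2b, featureCounts and DESeq2. The strand setting is not given in the sources used here. The authors deposited raw counts for 54232 genes in each library, together with gene positions and exonic lengths, and no other column per library. They also deposited a DESeq2 table of YKL against DMSO that holds a log2 fold change, a mean signal, a test score and p-values, of which 15908 genes with a unique name were used.

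Raw counts were tested with edgeR 4.0.16 in R 4.3.3, after filterByExpr (minimum count 10, minimum total 15) and TMM scaling, by the robust quasi-likelihood test with 2 residual degrees of freedom. All 16749 genes that passed were fitted together and p-values adjusted over them by Benjamini-Hochberg. A standard error was obtained from the F statistic as |log2 fold change|/√F. Levels per kb are CPM over exonic length. The biological coefficient of variation common to all genes was 25%.

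The text gives each enzyme that was called or had an unadjusted p under 0.05, the most abundant and the most changed enzyme of each role class, and Ezh2, Ep300, Crebbp, Kdm1a, Hdac1 and Hdac2. Others were named after their values were seen. The members, lists and tests were chosen with earlier results of these data known. Alternatives changed the scaling (RLE, upper quartile, total count), the filter (none, or 5 CPM in 2 libraries), the prior, the threshold (0.01) and the gene set (protein coding), added a replicate block or an offset for exonic length, used the Wald test of DESeq2 1.42.0, or left out each library. Promoter sequences are RefSeq's, and figures were drawn with matplotlib 3.10.9.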

Additional observations from a re-analysis of the deposited data

How the results depend on the processing

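The counts of calls moved with the processing, while directions mostly held. Against 593 genes, 6 enzymes (1 higher, 5 lower) and 5 partner genes called as reported, upper quartile scaling gave 331 genes and 3 enzymes (0 higher, 3 lower). Total count scaling gave 169 genes, 1 enzyme (0 higher, 1 lower) and 0 partner genes. RLE scaling called 0 enzymes higher, since Ezh2 dropped out and Kat5 came in. Without the filter 1740 genes, 16 enzymes (2 higher, 14 lower) and 13 partner genes were called. DESeq2 called 1599 genes, 15 enzymes (3 higher, 12 lower) and 11 partner genes. Without the robust prior the counts were 236 genes, 1 enzyme (0 higher, 1 lower) and 1 partner gene. At an adjusted p under 0.01 they were 30 genes, 0 enzymes (0 higher, 0 lower) and 0 partner genes. By edgeR, 21 of 58 enzymes and 32 of 154 partner genes had an unadjusted p under 0.05, against 21.2% of all genes. With 1 library left out, edgeR called 71 to 2453 genes, 0 to 14 enzymes (0 to 3 higher, 0 to 11 lower) and 0 to 19 partner genes. The highest count of genes came without DMSO replicate 2 and the lowest without YKL replicate 2. Beside the counts of 0, 15 to 26 enzymes and 10 to 43 partner genes had an unadjusted p under 0.05 in these fits. The share of all genes at that unadjusted p is not at hand for these fits, and the causes of these shifts were not tested.

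With the replicate number as a block, 1387 genes, 12 enzymes (2 higher, 10 lower) and 11 partner genes were called. Deviations of same-numbered libraries from their group means correlated at 0.152 over all genes, and with 2 pairs the libraries share only a number.

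The fold change of 19 of the 58 enzymes turned sign in at least 1 setting, none of them among the 6 called. Of the 35 named by rule, 5 did so. Hdac1, at 0.02 as reported, was at -0.012 without the filter and -0.017 with the length offset, and between -0.026 and 0.027 with 1 library left out. In those fits Hdac2 ran from -0.045 to 0.34, Kmt5a from -0.24 to 0.41, Setd2 from -0.57 to 0.029 and Setd3 from -0.072 to 0.22. The largest shift of the median of all genes under any scaling was 0.02.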

Other observations

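Of the 5 genes whose symbols match the pattern but which are not protein coding, the pseudogenes Kat2b-ps, Kat6b-ps1 and Kat6b-ps2 had at most 1 count in any library. The antisense gene Kdm6bos, whose exons share 286 bases with Kdm6b, had raw counts of 12 and 15 in DMSO against 3 and 6 in YKL.

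Exonic bases were shared with another gene by 22 of the 59 enzymes, and with a gene on the opposite strand by 19. Among the 6 called enzymes these were Ezh2, which shares 174 bases with Gm26625 (9 to 14 counts per library), Kmt5b, and Kdm3b, which shares 3468 bases with Gm26538 (0 counts in every library).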
